A study of Rattus norvegicus with 12 samples.

Results

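The genes described here encode the protein complexes of the mitochondrial respiratory chain and of ATP synthase. They were picked by name from a table of gene counts: the Nduf genes of complex I, Sdha to Sdhd of complex II, the Uqcr genes and Cyc1 of complex III, the Cox genes numbered from Cox4 to Cox8 of complex IV, the Atp5 genes of complex V, and the protein genes of mitochondrial DNA, whose names begin with Mt. Of 28727 named entries, 109 matched these names, and 97 of them had at least 10 counts in at least 3 of the 12 libraries. These 97 members comprise 84 nuclear genes and all 13 protein genes of mitochondrial DNA. Among the 84 nuclear members, 75 encode subunits or a supercomplex partner of complex IV. The other 9 share the names but encode assembly factors or related proteins. Ndufa4 and Ndufa4l2 are counted with complex IV.

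Electrons from NADH enter the chain at complex I and those from succinate at complex II. They pass by way of coenzyme Q, complex III and cytochrome c to complex IV, which hands them to oxygen, while complexes I, III and IV pump protons that drive ATP synthase, also called complex V. In the pancreatic β-cell the ATP made in this way closes potassium channels and so links glucose to insulin release. Most subunits are nuclear genes whose proteins are imported, complex II is nuclear throughout, and a small set of core subunits of the other complexes is made from mitochondrial DNA, which is transcribed as long precursors.

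The study used INS-1 832/13, a rat insulinoma line that serves as a model of the β-cell. Cells carried an adenovirus for GFP, the control, or for mCherry-tagged mouse ChREBPβ, the short and constantly active product of Mlxipl, whose protein answers to glucose. Both viruses were used at 2 or 11 mM glucose for 48 h, although the general adenovirus methods give a longer time. The 4 groups, with 3 libraries each, were thus GFP at 2 mM, GFP at 11 mM, ChREBPβ at 2 mM and ChREBPβ at 11 mM glucose. RNA from an RNeasy mini kit was amplified with NuGEN Ovation V2, so a count does not stand for an independent molecule. A figure legend calls the replicates independent experiments, and the p-values given here measure the spread between these 12 samples of a cancer-derived line.

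Total counts on named genes ran from 25754488 to 32938546 with GFP at 2 mM, and from 36219167 to 46654823 with GFP at 11 mM. With ChREBPβ they ran from 28595982 to 57726412 at 2 mM and from 57088794 to 60531215 at 11 mM. Values are TMM-scaled CPM, which sets each gene against the bulk of the others and gives no amount of RNA per cell. Differences were tested with edgeR on all 14669 genes that passed its filter, and all 97 members passed. A member is said to rise or fall where the Benjamini-Hochberg adjusted p over the 14669 genes was under 0.05 and the change at least 1.2-fold. At 2 mM Mlxipl itself, counted on the rat sequence, was at 240.4, 251.9 and 277.1 CPM under GFP against 203.3, 211.8 and 198.7 CPM under ChREBPβ, a log2 fold change of -0.33 (SE 0.0517, edgeR adjusted p = 2.03e-05). At 11 mM the value was -0.14 (SE 0.0515, edgeR adjusted p = 0.0295). The entry thus shows no rise with the ChREBPβ virus; whether reads of the mouse sequence are counted in it was not tested, and the virus of each library is taken from its label.

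One library must be named before the results. GFP at 2 mM replicate b was the highest of its group for 13 of the 13 mitochondrial-encoded members, and its summed mitochondrial level was 19626 CPM against 10883 and 13065 in replicates a and c. Results on mitochondrial-encoded members are therefore given with and without it. It stands apart by the size of that gap, as libraries kept a common order for these members in the other groups too. ChREBPβ at 2 mM replicate b was highest for 13 and replicate c lowest for 13, and GFP at 11 mM replicate c and ChREBPβ at 11 mM replicate a were highest for 12. Among the 84 nuclear members, GFP at 11 mM replicate b was the lowest of its group for 78 and ChREBPβ at 11 mM replicate a for 76. The within-group SD of log2 CPM had a median of 0.28 over the mitochondrial-encoded members, 0.0949 over the nuclear members and 0.0947 over all tested genes.

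Markers of the line were checked in the same libraries. All 10 β-cell markers listed had an entry and 9 were tested. Their summed level, in which Chga was the most abundant gene, was 23576 to 26547 CPM with GFP at 2 mM, 19191 to 21010 CPM with GFP at 11 mM and 12143 to 13243 CPM in the 6 ChREBPβ libraries. Between 11 and 2 mM in GFP cells 6 of the 9 fell, with a median of -0.41, where 10.0% of all tested genes fell. With ChREBPβ, 8 of the 9 fell at 2 mM and 7 fell at 11 mM, where 23.2% and 19.1% of all tested genes fell. Slc2a2, the glucose transporter gene, rose at both glucose levels. Of 7 markers of other islet cells, 3 were tested, and Gcg, the glucagon gene and the most abundant of them, fell from 1589 to 1719 CPM with GFP to 429 to 502 CPM with ChREBPβ. Of 12 non-endocrine markers, 11 had an entry and 3 were tested: their sum, with Vwf the most abundant, was 1.65 to 2.90 CPM per library, Ptprc and Prss1 were at 0 in all 12 libraries, and Pdgfrb and Cd68 were higher with ChREBPβ at 2 mM, Cd68 no longer so without GFP replicate b or c or ChREBPβ replicate a (adjusted p = 0.0781, 0.0721 and 0.107). In bulk RNA of this kind, fewer cells of a type and less RNA per cell cannot be told apart, and the part of these marker shifts in the results that follow was not tested.

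The summed levels of the 2 genomes are given for each group. The 84 nuclear members summed to 14052 ± 485 CPM (SD, n = 3) with GFP at 2 mM and to 14528 ± 946 CPM with GFP at 11 mM. With ChREBPβ the sums were 16366 ± 175 CPM at 2 mM and 16842 ± 841 CPM at 11 mM. With TMM scaling every ChREBPβ library lay above every GFP library, but as a share of raw library totals ChREBPβ at 11 mM replicate a (1.538%) lay just below GFP at 11 mM replicate a (1.543%). The 13 mitochondrial-encoded members summed to 10883, 19626 and 13065 CPM with GFP at 2 mM and to 14314, 13973 and 15227 CPM with GFP at 11 mM. With ChREBPβ they summed to 20842, 22822 and 19079 CPM at 2 mM and to 18865, 16154 and 14286 CPM at 11 mM. The ChREBPβ libraries at 2 mM were thus high, but replicate b of the GFP group lay among them, and at 11 mM the groups with and without ChREBPβ overlapped. The ratio of the mitochondrial to the nuclear sum averaged 1.03 with GFP at 2 mM (0.85 without replicate b), 1.00 with GFP at 11 mM, 1.28 with ChREBPβ at 2 mM and 0.98 with ChREBPβ at 11 mM. Its libraries at 2 mM ran from 0.80 to 1.39 with GFP and from 1.15 to 1.40 with ChREBPβ. At 11 mM they ran from 0.94 to 1.04 with GFP and from 0.82 to 1.19 with ChREBPβ. The groups thus overlapped at both glucose levels, and a difference between the 2 genomes was not tested.

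**Figure D1:**
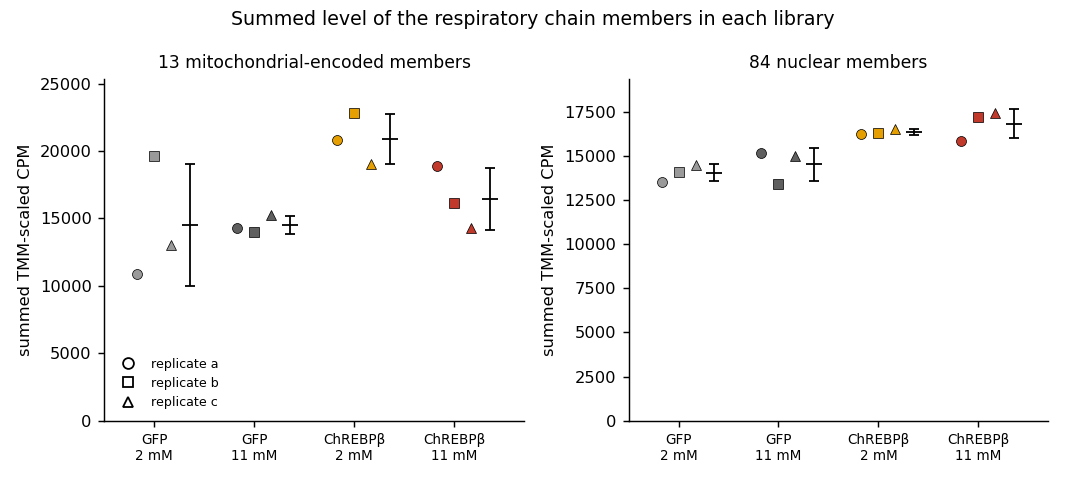
Summed TMM-scaled CPM of the 13 mitochondrial-encoded members (left) and the 84 nuclear members (right) in each of the 12 libraries, by group; symbols mark replicates and bars the mean ± SD of 3 libraries. With this scaling the nuclear sum is higher in all ChREBPβ libraries than in all GFP libraries, while the mitochondrial sum of GFP at 2 mM replicate b, 19626 CPM, lies among those of ChREBPβ at 2 mM.

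The comparison of ChREBPβ with GFP at 2 mM glucose asks what the factor does to these genes at low glucose. Of the 84 nuclear members, 17 rose (20.2%) and 6 fell (7.14%), where 21.0% of all tested genes rose and 23.2% fell. The share that rose is close to that of all genes, and the share that fell is lower. Without the fold minimum, 42 members were higher (50%) and 8 lower (9.52%) at an adjusted p under 0.05, against 28.8% and 29.8% of all genes. The median log2 fold change of the nuclear members was 0.14, against -0.017 over all tested genes. Of the 84, 65 were positive, against 7112 of the 14669 tested genes. With TMM scaling, then, most members had a small positive value and a minority of them passed the fold minimum; how far this rests on the scaling is given below.

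At 11 mM glucose the same question gave 18 nuclear members that rose (21.4%) and 1 that fell (1.19%), where 14.3% of all tested genes rose and 19.1% fell. Without the fold minimum, 44 were higher (52.4%) and 4 lower (4.76%), against 23.6% and 26.2% of all genes. The median was 0.15, against -0.017 over all tested genes. Of the 84, 70 were positive, against 6983 of the 14669 tested genes. As many members shared the order of the libraries, counts of members are not counts of separate observations. The comparisons at 2 and 11 mM share no library: 10 members rose in both, which is 58.8% of those that rose at 2 mM and 55.6% of those that rose at 11 mM. Of all tested genes, 1765 rose in both, which is 57.4% and 84% of those that rose at 2 and at 11 mM. The difference between these shares and those of the nuclear members was not tested. The 10 members were Ndufab1, Sdhd, Uqcrc1, Cox5a, Atp5b, Atp5c1, Atp5d, Atp5g3, Atp5j2 and Atp5o, 6 of them in ATP synthase. The overlap depends on scaling and on libraries. Under library totals Atp5d alone rose in both, of 3 members that rose at 11 mM, against 1285 of 1532 for all genes. Without GFP at 11 mM replicate b 6 of 8 did, against 1647 of 1966 for all genes. With DESeq2 13 of 24 did.

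The count at 11 mM leaned on single libraries, with 8 members higher without GFP replicate b and 28 without ChREBPβ replicate a, while the median stayed between 0.0886 and 0.20 whichever library was left out. Scaling by library totals in place of TMM moved the median of all tested genes to -0.12 at 2 mM and -0.10 at 11 mM and the share of calls that were higher from 47.5% to 33.2% and from 42.9% to 29.3%. Under it 9 and 3 of the 84 nuclear members rose and 7 and 2 fell. Of the 14669 tested genes 2196 and 1532 rose (15.0% and 10.4%) and 4421 and 3698 fell. With this scaling the nuclear members thus rose less often than all genes at both glucose levels, and also fell less often. Without the fold minimum, 23 were higher and 14 lower at 2 mM and 28 and 6 at 11 mM, and 52 and 60 of the 84 were positive. The nuclear median lies 0.16 and 0.17 above that of all genes with either scaling, but as scaling moves all genes nearly alike, this difference does not test it. Under library totals Cox5a (0.22), Ndufaf4 (0.24), Ndufv2, Ndufa9, Uqcrfs1 and Atp5j2 (0.19 each), Atp5c1 (0.24) and Atp5a1 (0.25) came under the fold minimum at 2 mM. At 11 mM those that did included Sdhd (0.24), Atp5b (0.22), Atp5o (0.24), Atp5g3 (0.24), Ndufab1 (0.21) and Uqcrc1 (0.21). Without GFP at 11 mM replicate b, Ndufab1, Ndufb8, Uqcrc1, Cox5b, Atp5c1 and Atp5j2 came to between 0.20 and 0.26 at 11 mM, under the fold minimum too.

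**Figure D2:**
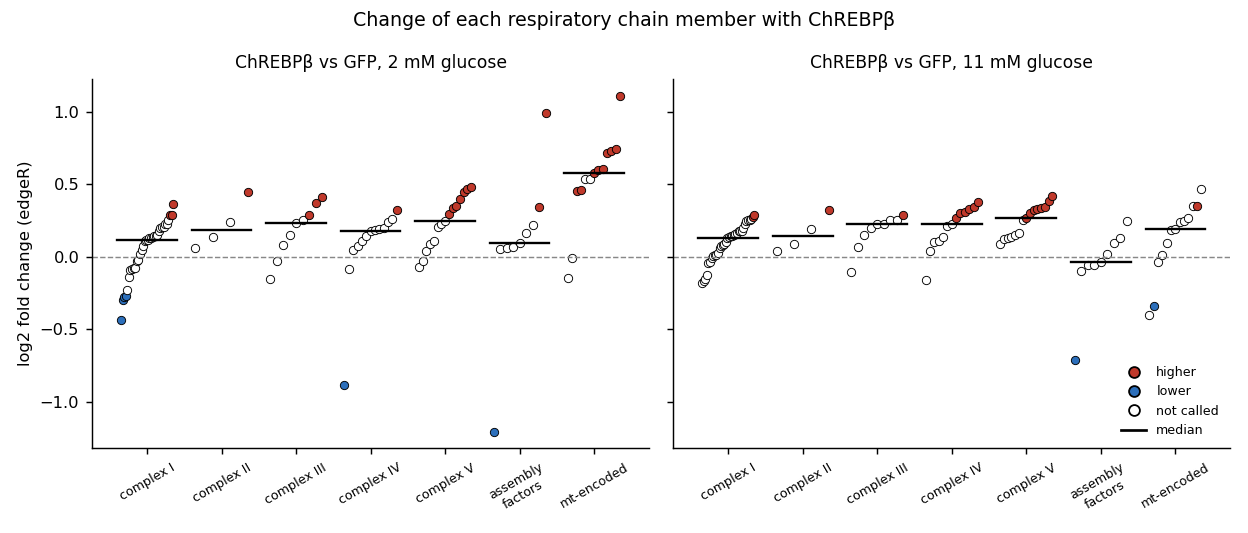
Log2 fold change of each member with ChREBPβ against GFP at 2 mM (left) and 11 mM (right), by complex; filled points rose or fell and lines are medians. Complex V has 7 of 15 points filled at 2 mM and 8 of 15 at 11 mM, all of them above 0.

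Glucose alone moved few of these genes. Between 11 and 2 mM in GFP cells, 2 nuclear members rose (2.38%) and 4 fell (4.76%), where 10.2% of all tested genes rose and 10.0% fell. Without the fold minimum, 15 were higher (17.9%) and 9 lower (10.7%), against 18.2% and 16.1% of all genes, and the median was -0.0027. This comparison shares its GFP libraries at 2 mM with the ChREBPβ comparison at 2 mM. Without GFP at 11 mM replicate b, 4 rose and no fall was called, without replicate a 7 fell, and without GFP at 2 mM replicate b 2 fell.

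In cells with ChREBPβ, edgeR called 0 nuclear members higher and 0 lower between 11 and 2 mM, where 0.988% of all tested genes rose and 2.88% fell. At an unadjusted p under 0.05 there were 3 higher and 3 lower, and DESeq2 also called 0. The interaction, which subtracts the ChREBPβ effect at 2 mM from that at 11 mM, was lower for 2 nuclear members, Ndufaf2 and Ndufaf4, and edgeR called 0 higher (5 at an unadjusted p under 0.05, 1 by DESeq2), where 1.56% of all tested genes were higher and 4.74% lower. Both are assembly factors, described with that group.

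Complex I has 34 nuclear members, 7 of them core subunits of the matrix arm, where NADH is oxidized, and 27 accessory subunits. With ChREBPβ at 2 mM, 3 rose (8.82%) and 4 fell (11.8%), and at 11 mM 2 rose (5.88%). Both shares that rose lie below the 21.0% and 14.3% of all tested genes, while the medians, 0.12 and 0.13, were positive. Under library totals 1 rose and 5 fell at 2 mM, and 0 rose and 1 fell at 11 mM. At 11 mM 6 rose with DESeq2, and 0 without GFP replicate b or without ChREBPβ replicate c. Among core subunits, Ndufv2, an iron-sulfur protein of the NADH-oxidizing module, was the member that rose at 2 mM. It was at 70.4, 71.6 and 69.4 CPM with GFP and 83.8, 85.7 and 88.5 CPM with ChREBPβ, without overlap, a log2 fold change of 0.29 (SE 0.0619, edgeR adjusted p = 0.000509). The other 6 core subunits had values from 0.074 to 0.23 at 2 mM.

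Accessory subunits went both ways. Ndufab1, the mitochondrial acyl carrier protein, which also serves fatty acid and iron-sulfur synthesis, rose at both glucose levels. Its level was 126, 129 and 132 CPM with GFP and 168, 165 and 166 CPM in ChREBPβ cells at 2 mM, and 149, 135 and 149.9 against 161, 177 and 193 CPM at 11 mM. No GFP library reached a ChREBPβ library at either level, and the log2 fold changes were 0.37 (SE 0.0557, edgeR adjusted p = 1.28e-05) and 0.29 (SE 0.0548, edgeR adjusted p = 0.000185). The call at 11 mM ended under library totals (0.21) and without GFP replicate b (0.24) or ChREBPβ replicate c (0.23). Ndufa9, a subunit at the joint of the arms, rose at 2 mM by 0.29 (SE 0.0456, edgeR adjusted p = 1.97e-05), and Ndufb8, in the membrane arm, rose at 11 mM by 0.27 (SE 0.0617, edgeR adjusted p = 0.00103). The call of Ndufb8 ended under library totals (0.19) and without GFP replicate b (0.20) or ChREBPβ replicate b or c (0.24 each). That of Ndufa9 ended under library totals (0.19) and without ChREBPβ at 2 mM replicate c (0.26).

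The 4 subunits of complex I that fell at 2 mM were Ndufa12, Ndufb2, Ndufc1 and Ndufb4. Ndufa12 takes its place in the matrix arm late in assembly, in exchange for the factor Ndufaf2. It was at 34.6, 38.3 and 38.9 CPM with GFP and 27.9, 28.8 and 26.1 CPM with ChREBPβ, a log2 fold change of -0.43 (SE 0.11, edgeR adjusted p = 0.00203), and all 3 ChREBPβ libraries lay below all 3 GFP libraries. At 11 mM it was at 35.4, 24.7 and 33.3 against 25.97, 30.6 and 35.0 CPM, which overlap, with -0.034 (SE 0.11, edgeR adjusted p = 0.815). The interaction, 0.40 (SE 0.15, edgeR adjusted p = 0.124), was not called, but it was without ChREBPβ at 11 mM replicate a (0.50, adjusted p = 0.037) and without a filter (0.40, adjusted p = 0.00174).

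Ndufb2 and Ndufc1 are small accessory subunits of the membrane arm. Ndufb2 was at 108, 109.8 and 121 CPM in GFP cells at 2 mM, 99.0, 81.1 and 90.7 CPM in GFP cells at 11 mM and 91.1, 91.1 and 93.5 CPM in ChREBPβ cells at 2 mM. Its GFP libraries at 2 mM were above all others, and it fell both with ChREBPβ at 2 mM, with a log2 fold change of -0.30 (SE 0.0628, edgeR adjusted p = 0.000442), and with glucose in GFP cells, -0.32 (SE 0.0628, edgeR adjusted p = 0.000508). Without GFP at 2 mM replicate c the value with ChREBPβ was -0.24, and without GFP at 11 mM replicate b that with glucose was -0.25, both under the fold minimum. Ndufc1 was at 42.8, 39.7 and 42.6 against 38.2, 31.8 and 33.6 CPM at 2 mM, with -0.28 (SE 0.0707, edgeR adjusted p = 0.00213), and leaving out any of 4 of the 6 libraries compared brought it under the fold minimum, to between -0.22 and -0.26. Ndufb4 fell at 2 mM, with -0.27 (SE 0.0656, edgeR adjusted p = 0.00162), and was at -0.0075 at 11 mM. Its call ended with DESeq2 (-0.26), RLE factors, or without GFP at 2 mM replicate c (-0.24) or ChREBPβ at 2 mM replicate c (-0.26).

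Ndufv3, an accessory subunit of the NADH-oxidizing module, fell with glucose in GFP cells. Its level was 172, 178 and 197 CPM at 2 mM and 158, 131 and 154 CPM at 11 mM, a log2 fold change of -0.30 (SE 0.0659, edgeR adjusted p = 0.00131). All 3 libraries at 11 mM were below all 3 at 2 mM, and without GFP at 11 mM replicate b the value was -0.22 and without GFP at 2 mM replicate c -0.24, under the fold minimum. With ChREBPβ at 11 mM it was at 166, 174 and 192 CPM, 0.26 (SE 0.0653, edgeR adjusted p = 0.00237) against GFP, just short of the fold minimum. It passed that minimum with DESeq2 (0.28), RLE factors (0.28), scaling on nuclear genes, the filter of 10 counts in every library, a replicate block, the fit of 2 groups (0.27) and in 5 fits with a library left out (up to 0.31). Entries for Ndufa1 and Ndufs6 held at most 1 and 11 counts in any library and Ndufa13 at most 17, and how reads that match several near-identical copies were counted is not given in the sources used here.

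Complex II, succinate dehydrogenase, oxidizes succinate of the citric acid cycle and has 4 subunits. Sdhd, a membrane anchor that binds heme and coenzyme Q, was at 71.3, 70.6 and 65.5 CPM in GFP cells at 2 mM and 83.4, 75.3 and 81.2 CPM in GFP cells at 11 mM. With ChREBPβ it was at 91.2, 94.1 and 97.6 CPM at 2 mM and 94.8, 101 and 105 CPM at 11 mM. Every ChREBPβ library was above every GFP library, and Sdhd rose by 0.45 (SE 0.0524, edgeR adjusted p = 4.1e-07) at 2 mM and 0.32 (SE 0.051, edgeR adjusted p = 2.94e-05) at 11 mM.

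Its partners had smaller values and were not called. Sdha, the flavoprotein that holds the catalytic site, was at 184, 185 and 175 CPM with GFP and 198, 199 and 199 CPM in ChREBPβ cells at 2 mM, 0.13 (SE 0.0378, edgeR adjusted p = 0.00475). Sdhb, the iron-sulfur subunit, was at 64.6, 62.2 and 74.1 against 77.2, 80.1 and 80.1 CPM, 0.24 (SE 0.066, edgeR adjusted p = 0.00375), and past the fold minimum at 0.32 without GFP at 2 mM replicate c. The other anchor, Sdhc, was at 79.9, 87.6 and 89.6 against 88.2, 88.8 and 91.7 CPM, 0.064 (SE 0.0486, edgeR adjusted p = 0.274). At 11 mM the values were 0.09 for Sdha, 0.19 for Sdhb and 0.04 for Sdhc. Differences between the 4 subunits were not tested.

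Complex III passes electrons from coenzyme Q to cytochrome c. Of its 9 nuclear members, 3 rose at 2 mM (33.3%) and 1 at 11 mM (11.1%), where 21.0% and 14.3% of all tested genes did, and the medians were 0.24 and 0.23. With DESeq2 3 rose at each level, and under library totals 2 rose at 2 mM and 0 at 11 mM. At 11 mM 0 rose without GFP replicate b and 5 without ChREBPβ replicate a. Those that rose at 2 mM include both nuclear-encoded electron carriers: Cyc1, the cytochrome c1 that reduces cytochrome c, and Uqcrfs1, the Rieske iron-sulfur protein. Cyc1 was at 168, 172 and 184 CPM with GFP and 228, 233 and 238 CPM with ChREBPβ, without overlap, and rose by 0.42 (SE 0.0451, edgeR adjusted p = 1.47e-07). Uqcrfs1 rose by 0.29 (SE 0.0495, edgeR adjusted p = 5.44e-05), and at 11 mM these genes were at 0.23 and 0.23. The call of Uqcrfs1 at 2 mM ended under library totals (0.19) and without GFP replicate a (0.26).

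Uqcrc1, a core subunit related to mitochondrial processing peptidases, was the member that rose at both glucose levels. It was at 99.5, 103 and 112 CPM with GFP and 135, 133 and 138 CPM in ChREBPβ cells at 2 mM, 0.37 (SE 0.0485, edgeR adjusted p = 1.95e-06). At 11 mM it was at 119.8, 111 and 119.8 against 138, 148 and 144 CPM, 0.29 (SE 0.0476, edgeR adjusted p = 4.12e-05), again without overlap. Among the small subunits, Uqcr11 had the lowest values, -0.15 and -0.11, and was not called.

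Complex IV, cytochrome c oxidase, has 13 nuclear members here. Counted among them are Cox7a2l, which joins complexes III and IV into supercomplexes, Ndufa4 and its paralogue Ndufa4l2. With ChREBPβ, 1 rose and 1 fell at 2 mM (7.69% each) and 6 rose at 11 mM (46.2%), where 21.0% and 14.3% of all tested genes rose. The medians were 0.18 and 0.23. The member that fell was Ndufa4l2, which was near the detection limit and is described below. Cox5a, an early-assembling subunit on the matrix side, rose at both levels. It was at 135, 141 and 151 CPM with GFP and 178, 176 and 181 CPM in ChREBPβ cells at 2 mM, 0.32 (SE 0.0582, edgeR adjusted p = 8.35e-05). At 11 mM it was at 153, 141 and 159 against 178, 199 and 211 CPM, 0.38 (SE 0.0574, edgeR adjusted p = 1.85e-05). Groups did not overlap at either level.

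The others that rose at 11 mM were Cox4i1, Cox5b, Cox6b1, Cox6c and Cox8a. Cox6b1, which faces the intermembrane space and touches the cytochrome c site, was at 184, 145 and 181 CPM with GFP and 198, 217 and 231 CPM with ChREBPβ, 0.34 (SE 0.0683, edgeR adjusted p = 0.00034). GFP replicate b was low and without it the value was 0.24, under the fold minimum; Cox4i1 and Cox8a likewise came to 0.20 and 0.21 without that library. Cox4i1 was also under it without ChREBPβ at 11 mM replicate b (0.25) or c (0.22), and under library totals all 5 came under it: Cox4i1 to 0.18, Cox8a to 0.22, Cox5b to 0.23, Cox6c to 0.25 and Cox6b1 to 0.26. Of the 6 rises in complex IV at 11 mM that of Cox5a alone was left with that scaling. At 2 mM these 5 had positive values from 0.11 for Cox5b to 0.26 for Cox6c and were not called, though Cox6c was with DESeq2 (0.27).

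Several complex IV subunits exist as tissue isoforms. The isoforms found in most tissues were measured throughout: Cox4i1 was at 219 to 259.7 CPM in the GFP libraries and 269 to 313 CPM in the ChREBPβ libraries, and Cox8a at 397 to 496 and 521 to 576 CPM. Cox6a1, Cox7a2 and Cox7b were not called, with values of 0.14, 0.19 and 0.076 at 2 mM, then 0.21, 0.14 and 0.10 at 11 mM. The isoforms known from lung, muscle, heart, testis or other restricted sites did not meet the count rule: Cox4i2 reached at most 8 counts in any library, Cox7a1 at most 3, Cox6a2 and Cox7b2 at most 2, Cox6b2 and Cox8b at most 1, and Cox8c held 0. Neither virus nor glucose brought any of these entries to 10 counts.

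The pair Ndufa4 and Ndufa4l2 is also assigned to complex IV. Ndufa4, a subunit of the mature enzyme, was at 295 to 372 CPM with GFP and 318 to 355 CPM with ChREBPβ and was not called. Ndufa4l2, its paralogue known to be induced by low oxygen, was near the detection limit at 1.62, 2.39 and 1.35 CPM in GFP cells at 2 mM and 0.573, 1.18 and 1.04 CPM in ChREBPβ cells at 2 mM. It was highest in GFP replicate b, the groups did not overlap, and it fell, with -0.89 (SE 0.27, edgeR adjusted p = 0.00829); without that replicate the value was -0.60 with an adjusted p of 0.092. With GFP at 11 mM it was at 1.17, 0.884 and 1.14 CPM, -0.74 (SE 0.27, edgeR adjusted p = 0.0383) against 2 mM. That call ended when GFP at 2 mM replicate b or any of the GFP libraries at 11 mM was left out, with adjusted p between 0.0556 and 0.26. It also ended with a replicate block, at -0.70 (edgeR adjusted p = 0.0505).

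With TMM scaling ATP synthase holds the largest number of members that rose. Of its 15 nuclear members, 7 rose at 2 mM (46.7%) and 8 at 11 mM (53.3%), where 21.0% and 14.3% of all tested genes did. The medians were 0.25 and 0.27, and all 15 were positive at 11 mM. Under library totals 4 of the 15 rose at 2 mM and 2 at 11 mM, where 15.0% and 10.4% of all tested genes did, and the medians were 0.15 and 0.18. Without GFP at 11 mM replicate b 5 rose at 11 mM. In the catalytic F1 part 4 of 5 rose at 2 mM and 3 of 5 at 11 mM, and in the membrane part and stalk 3 and 5 of 10 did. In F1, Atp5e, the small ε subunit, was not called at either level, with -0.03 and 0.15.

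Atp5b, the β subunit where ATP is formed, was at 1804, 1887 and 1898 CPM in GFP cells at 2 mM and 2262, 2091 and 2227 CPM in GFP cells at 11 mM. With ChREBPβ it was at 2518, 2569 and 2643 CPM at 2 mM and 2553, 2789.6 and 2793 CPM at 11 mM. The order of the groups was the same as for Sdhd, with all ChREBPβ libraries above all GFP libraries and the GFP libraries at 11 mM above those at 2 mM. It rose with ChREBPβ by 0.47 (SE 0.0431, edgeR adjusted p = 1.49e-08) at 2 mM and 0.31 (SE 0.043, edgeR adjusted p = 6.81e-06) at 11 mM. With glucose in GFP cells the value was 0.24 (SE 0.0431, edgeR adjusted p = 0.000264), under the fold minimum, and 0.27 without GFP at 11 mM replicate b, past it.

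Atp5d, the δ subunit of the rotor stalk, had the largest rise of any nuclear subunit gene at both glucose levels. It was at 179, 197 and 216 CPM with GFP and 262, 279.8 and 286 CPM in ChREBPβ cells at 2 mM, and at 229, 213 and 233 against 292, 312 and 300.1 CPM at 11 mM. No libraries overlapped between the viruses, and the log2 fold changes were 0.48 (SE 0.0566, edgeR adjusted p = 4.23e-07) and 0.42 (SE 0.0561, edgeR adjusted p = 3.32e-06). Atp5c1, for the γ subunit of the same stalk, rose by 0.34 and 0.27. Atp5a1, the α subunit, rose at 2 mM by 0.35 (SE 0.0395, edgeR adjusted p = 2.6e-07) and at 11 mM was at 0.25 (SE 0.0394, edgeR adjusted p = 2.18e-05), short of the fold minimum, which it passed with DESeq2 (0.27).

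In the stator, Atp5o, the protein that ties the peripheral stalk to F1, was at 109.9, 110.3 and 117 CPM with GFP and 149.6, 151 and 159 CPM in ChREBPβ cells at 2 mM. At 11 mM it was at 138, 123 and 132 against 148, 173 and 170.2 CPM. It rose without overlap at both levels, by 0.45 (SE 0.0565, edgeR adjusted p = 1.23e-06) and 0.32 (SE 0.0555, edgeR adjusted p = 7.45e-05). Atp5h, the d subunit of the same stalk, rose at 11 mM, from 303, 259.6 and 304 to 343, 378 and 409 CPM, 0.38 (SE 0.0704, edgeR adjusted p = 0.000146). At 2 mM it was at 0.25 (SE 0.0707, edgeR adjusted p = 0.00551), short of the fold minimum, and at 0.33 without GFP replicate c.

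Atp5i, the e subunit of the membrane part, shows how a call can rest on single libraries and on the fit. It was at 105, 68.8 and 104 CPM in GFP cells at 11 mM and 99.2, 116 and 139 CPM in ChREBPβ cells at 11 mM, groups that overlap, with 0.35 (SE 0.13, edgeR adjusted p = 0.0365). Without the low GFP replicate b the value was 0.18 (adjusted p = 0.19), without ChREBPβ replicate c 0.21 (0.22), and DESeq2 gave an adjusted p of 0.10. The call also ended under library totals (edgeR adjusted p = 0.0995), in the fit of 2 groups (0.0547) and without ChREBPβ replicate b (0.0653). Atp5j2, the f subunit of the membrane part, rose at both levels by 0.29 and 0.34.

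The c ring, through which protons turn the rotor, is built from identical proteins encoded by 3 genes. Atp5g3 rose at both glucose levels: it was at 189.9, 197 and 209.9 CPM with GFP and 257, 260.4 and 271 CPM in ChREBPβ cells at 2 mM, 0.40 (SE 0.0505, edgeR adjusted p = 1.08e-06), and at 220.3, 199 and 225 against 258, 281 and 269 CPM at 11 mM, 0.33 (SE 0.05, edgeR adjusted p = 1.82e-05). Atp5g2 was at 399, 420.3 and 439 against 479.5, 493 and 499 CPM at 2 mM, 0.23 (SE 0.0515, edgeR adjusted p = 0.000872), and 0.17 at 11 mM, under the fold minimum. Atp5g1 was at 237, 261 and 272 against 275, 265 and 279 CPM at 2 mM, 0.09 (SE 0.0609, edgeR adjusted p = 0.218), and 0.13 at 11 mM. Groups did not overlap at 2 mM for Atp5g3 and Atp5g2 and overlapped for Atp5g1, and differences between the 3 genes were not tested.

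**Figure D3:**
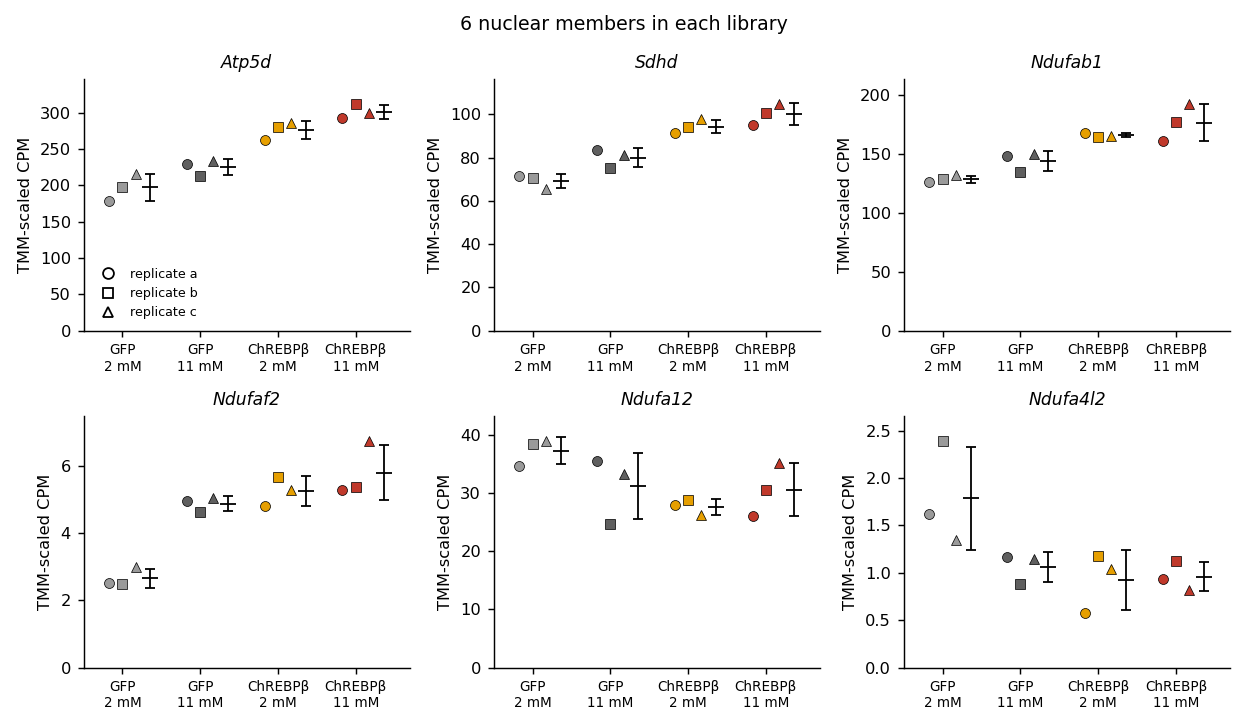
TMM-scaled CPM of Atp5d, Sdhd, Ndufab1, Ndufaf2, Ndufa12 and Ndufa4l2 in each library, by group; symbols mark replicates and bars the mean ± SD of 3 libraries. The upper 3 are higher in all ChREBPβ libraries than in the GFP libraries of the same glucose level, and Ndufaf2 is low in GFP at 2 mM alone.

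The 9 members that are not subunits include the largest changes among the nuclear members. Ndufaf2, the assembly factor that holds the place of Ndufa12 in complex I, stood at 2.50, 2.48 and 2.98 CPM in GFP cells at 2 mM against 4.96, 4.63 and 5.03 CPM at 11 mM. With ChREBPβ it was at 4.80, 5.67 and 5.26 CPM at 2 mM and 5.29, 5.35 and 6.73 CPM at 11 mM. The GFP libraries at 2 mM stood alone at the low end. It rose with ChREBPβ at 2 mM by 0.99 (SE 0.14, edgeR adjusted p = 3.73e-06) and with glucose in GFP cells by 0.88 (SE 0.14, edgeR adjusted p = 5.81e-05), was at 0.24 (SE 0.12, edgeR adjusted p = 0.0934) with ChREBPβ at 11 mM, and had an interaction of -0.75 (SE 0.18, edgeR adjusted p = 0.014).

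Ndufaf4, needed early for the arm that reduces coenzyme Q, shared its low group with Ndufaf2 but not the order of the other groups. It was at 60.7, 59.6 and 50.5 CPM in GFP cells at 2 mM, 75.4, 84.1 and 77.7 CPM in GFP cells at 11 mM, 77.6, 71.3 and 68.0 CPM in ChREBPβ cells at 2 mM and 75.3, 75.5 and 80.6 CPM in ChREBPβ cells at 11 mM. Again GFP at 2 mM was the low group. It rose with ChREBPβ at 2 mM by 0.34 (SE 0.0662, edgeR adjusted p = 0.000183) and with glucose in GFP cells by 0.47 (SE 0.066, edgeR adjusted p = 1.48e-05), and the interaction was -0.38 (SE 0.0919, edgeR adjusted p = 0.0144). Without GFP at 2 mM replicate c its rise with ChREBPβ came to 0.26, at the edge of the fold minimum and under it, and without ChREBPβ at 2 mM replicate a the interaction had an adjusted p of 0.053.

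Atp5s, named for ATP synthase but not a core subunit, fell in 3 comparisons at very low levels. It was at 2.02, 3.62 and 1.99 CPM in GFP cells at 2 mM and 1.64, 1.39 and 1.57 CPM in GFP cells at 11 mM, and with ChREBPβ at 1.15, 1.39 and 0.806 CPM at 2 mM and 1.07, 0.895 and 0.841 CPM at 11 mM. GFP at 2 mM replicate b was the highest library. The log2 fold changes were -1.21 (SE 0.25, edgeR adjusted p = 0.000417) with ChREBPβ at 2 mM, -0.71 (SE 0.26, edgeR adjusted p = 0.0272) at 11 mM and -0.74 (SE 0.24, edgeR adjusted p = 0.0248) with glucose in GFP cells. The call at 11 mM ended without GFP replicate a or c or ChREBPβ replicate b or c, with adjusted p from 0.065 to 0.0836, and the glucose call ended without GFP at 2 mM replicate b, at -0.38 (adjusted p = 0.27), or without GFP at 11 mM replicate b or c (0.0626 and 0.0593). The other 6, Ndufaf1, Ndufaf3, Ndufaf5, Ndufaf6, Ndufaf7 and Atp5sl, were not called in any comparison.

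Mitochondrial DNA encodes subunits of the proton-pumping membrane arm of complex I, cytochrome b of complex III, the catalytic core of complex IV and part of the membrane sector of ATP synthase. With ChREBPβ at 2 mM, 9 of the 13 members rose (69.2%), and edgeR called 0 lower (1 at an unadjusted p under 0.05, 0 by DESeq2), where 21.0% of all tested genes rose and 23.2% fell. The median was 0.58, against 0.14 for the nuclear members and -0.017 for all tested genes. Without GFP at 2 mM replicate b, 11 rose and the median was 0.98; without GFP at 2 mM replicate a, 8 rose and the median was 0.40. As replicate b was the highest GFP library for all 13 members, leaving it out was bound to raise these values and does not test their direction. The median was positive whichever library was left out, but its size, from 0.40 to 0.98, depended on the libraries kept. With all libraries kept, 8 rose with DESeq2, 8 under library totals, 11 with a replicate block and 11 without a filter.

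**Figure D4:**
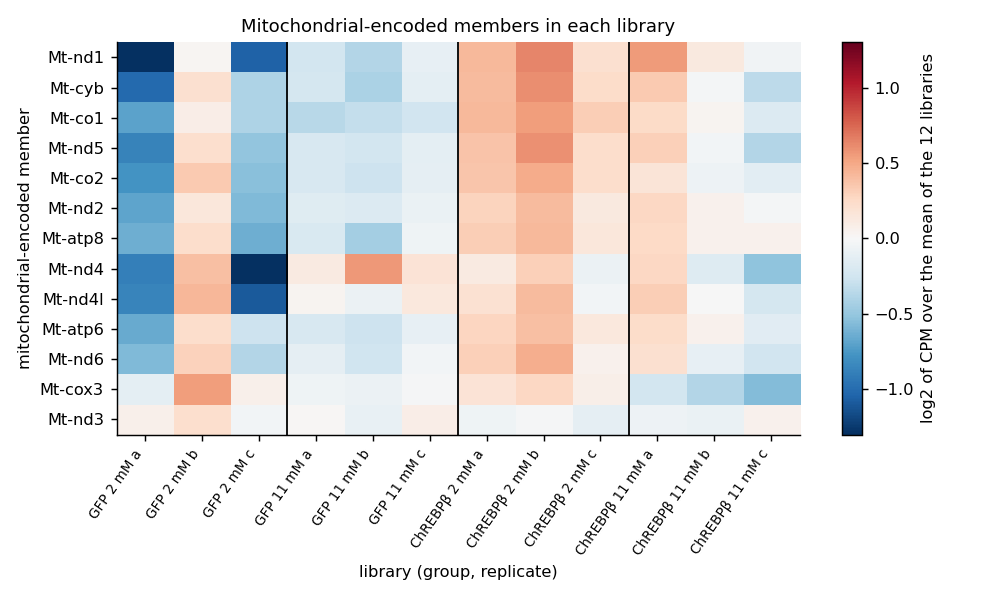
Level of each mitochondrial-encoded member in each library, as the log2 of its TMM-scaled CPM over its mean of the 12 libraries; blue is below and red above that mean. GFP at 2 mM replicates a and c are below the mean for most members, replicate b is above it or close to it, and Mt-nd3 and Mt-cox3 differ from the others in their pattern.

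Complex I takes 7 of these genes, all for proton-pumping or adjoining membrane subunits. Mt-nd1, which lies where coenzyme Q enters, was at 240.1, 666 and 315 CPM with GFP and 877, 1013 and 754 CPM in ChREBPβ cells at 2 mM. GFP replicates a and c were far below the ChREBPβ libraries and replicate b was just below the lowest of them. It rose by 1.11 (SE 0.24, edgeR adjusted p = 0.00044), or 1.67 (SE 0.15, edgeR adjusted p = 1.32e-08) without replicate b. At 11 mM it was at 554, 502 and 608 against 957, 713 and 634 CPM, 0.47 (SE 0.23, edgeR adjusted p = 0.102).

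Mt-nd2, a proton-pumping subunit, was at 783, 1393 and 847 CPM with GFP and 1538, 1675 and 1376 CPM in ChREBPβ cells at 2 mM, and rose by 0.60 (SE 0.14, edgeR adjusted p = 0.000952), or 0.91 without GFP replicate b. Mt-nd5, the subunit at the far end of the arm, was at 279, 595 and 357 against 658, 771 and 597 CPM, and rose by 0.72 (SE 0.19, edgeR adjusted p = 0.00258), or 1.09 without that library. For Mt-nd2 and Mt-nd5 GFP replicate b lay within the ChREBPβ range or just below it. Mt-nd6, the member read from the opposite strand of mitochondrial DNA, was at 111, 204 and 128 against 207, 229.7 and 173 CPM, and rose by 0.46 (SE 0.16, edgeR adjusted p = 0.0165), or 0.77 without GFP replicate b. With all libraries DESeq2 gave it an adjusted p of 0.0808, library totals gave 0.0569, and leaving out GFP replicate a or c or ChREBPβ replicate b ended the call, at 0.29, 0.36 and 0.36. Whether the libraries kept the strand is not given in the sources used here, so counts for Mt-nd6 may include reads of its neighbours.

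Mt-nd4 and Mt-nd4l, which overlap and share a transcript, behaved alike at 2 mM. Mt-nd4 was at 32.3, 78.3 and 23.0 CPM with GFP and 64.9, 73.9 and 56.9 CPM in ChREBPβ cells at 2 mM, and at 64.6, 88.5 and 67.5 against 72.1, 53.1 and 41.5 CPM at 11 mM. Its GFP replicates a and c at 2 mM were the lowest of the 12 libraries, and replicate b was above the ChREBPβ libraries. The log2 fold change at 2 mM was 0.54 (SE 0.28, edgeR adjusted p = 0.108) with all libraries and 1.24 (SE 0.19, edgeR adjusted p = 1.77e-05) without replicate b. Mt-nd4l was at 64.0, 157 and 54.6 against 133, 155 and 113 CPM at 2 mM, 0.54 (SE 0.24, edgeR adjusted p = 0.068), or 1.18 (SE 0.13, edgeR adjusted p = 3.95e-07) without replicate b. With all libraries and a replicate block Mt-nd4 rose by 0.63 (edgeR adjusted p = 0.0191) and Mt-nd4l by 0.60 (edgeR adjusted p = 0.0244). Both were also called without a filter.

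Mt-nd3, a short subunit near the coenzyme Q site, did not follow. It was at 391, 434 and 363 CPM with GFP and 358, 370.1 and 344 CPM in ChREBPβ cells at 2 mM, and at 377, 349 and 397 against 357, 353 and 387 CPM at 11 mM. All 12 libraries lay within a narrow range, and the log2 fold change at 2 mM was -0.15 (SE 0.0591, edgeR adjusted p = 0.0382), under the fold minimum, and -0.075 without GFP replicate b. The mitochondrial-encoded members thus did not all scale together, although they derive from the same genome.

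Mt-cyb, the cytochrome b that moves electrons through complex III, was at 544, 1262 and 827 CPM with GFP and 1453, 1666 and 1293 CPM in ChREBPβ cells at 2 mM. Its GFP replicate b was just below the lowest ChREBPβ library. It rose by 0.74 (SE 0.20, edgeR adjusted p = 0.00304), or 1.10 (SE 0.16, edgeR adjusted p = 1.15e-05) without that replicate. At 11 mM it was at 933, 825 and 1000.1 against 1389, 1073 and 863 CPM, 0.27 (SE 0.20, edgeR adjusted p = 0.268), with overlap.

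In complex IV, Mt-co1 carries the site where oxygen is reduced. It was at 3191, 5496 and 3919 CPM in GFP cells at 2 mM and 4048, 4170.1 and 4376 CPM in GFP cells at 11 mM, and with ChREBPβ at 6929.6, 7578 and 6462 CPM at 2 mM and 6155, 5328 and 4571 CPM at 11 mM. No library overlapped between the viruses at either glucose level. It rose by 0.73 (SE 0.13, edgeR adjusted p = 6.49e-05) at 2 mM and by 0.35 (SE 0.13, edgeR adjusted p = 0.0296) at 11 mM, the latter with an adjusted p of 0.10 by DESeq2 and 0.0935 under library totals, and not called without GFP replicate a or ChREBPβ replicate a or b. Mt-co2, which takes electrons from cytochrome c, was at 1037, 2241 and 1222 against 2287, 2488 and 2081 CPM at 2 mM, where GFP replicate b lay among the ChREBPβ libraries, and rose by 0.61 (SE 0.17, edgeR adjusted p = 0.0051). Without that replicate the rises at 2 mM were 0.98 for Mt-co1 and 1.02 for Mt-co2.

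Mt-cox3, the remaining core subunit of complex IV, went the other way at 11 mM. It was at 2529.9, 4017 and 2901 CPM in GFP cells at 2 mM and 3128, 3331 and 2921 CPM in ChREBPβ cells at 2 mM, -0.01 (SE 0.11, edgeR adjusted p = 0.942), or 0.20 without GFP replicate b. With GFP at 11 mM it was at 2664, 2617 and 2736 CPM and with ChREBPβ at 11 mM at 2351, 2120.0 and 1865 CPM, all ChREBPβ libraries below all GFP libraries. It fell, with -0.34 (SE 0.11, edgeR adjusted p = 0.015) and an adjusted p of 0.092 by DESeq2, and was at -0.26 without ChREBPβ replicate c. Between 11 and 2 mM in ChREBPβ cells it fell too, with -0.57 (SE 0.11, edgeR adjusted p = 0.00278), again without overlap. Mt-co1 and Mt-cox3 thus had opposite signs at 11 mM, though both encode the core of the same enzyme.

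Mt-atp6, which forms the proton path of ATP synthase, was at 1402, 2576 and 1829.6 CPM with GFP and 2669, 2891 and 2431 CPM in ChREBPβ cells at 2 mM, and rose by 0.46 (SE 0.14, edgeR adjusted p = 0.00716). Mt-atp8, a small subunit whose reading frame overlaps that of Mt-atp6, was at 279, 507 and 279 against 539, 579 and 478 CPM, and rose by 0.58 (SE 0.16, edgeR adjusted p = 0.00339). For both, GFP replicate b was the only GFP library inside the ChREBPβ range, and without it the rises were 0.72 and 0.93. How reads in the shared stretch, or reads that match nuclear copies of mitochondrial DNA, were assigned is not given in the sources used here.

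At 11 mM glucose, 1 mitochondrial-encoded member rose, Mt-co1, and 1 fell, Mt-cox3, of 13 (7.69% each), where 14.3% of all tested genes rose and 19.1% fell. The median was 0.19, with 0.074 without ChREBPβ at 11 mM replicate a and 0.30 without replicate c. DESeq2 called 0 in either direction. The values at 11 mM do not use the GFP libraries at 2 mM, but the shared estimate of the spread does: without GFP at 2 mM replicate b, 5 members were called, with Mt-nd1 and Mt-atp8 also higher, by 0.47 and 0.35, and Mt-nd4 lower, at -0.40. Leaving out GFP at 2 mM replicate a gave 4 calls, and leaving out GFP at 11 mM replicate a or any ChREBPβ library at 11 mM gave 1.

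Glucose in GFP cells gave no call among the mitochondrial-encoded members by edgeR, 0 higher and 0 lower, with 1 higher and 1 lower at an unadjusted p under 0.05 and 0 by DESeq2. Of all tested genes 10.2% rose and 10.0% fell. The median of the mitochondrial-encoded members was 0.063. Without GFP at 2 mM replicate b, 8 members rose and the median was 0.42, while 1530 of 14882 tested genes rose. Mt-nd4 was then at 1.41 (SE 0.19, edgeR adjusted p = 1.65e-05), Mt-nd4l at 1.01 and Mt-nd1 at 1.00. Without GFP at 2 mM replicate a the median was -0.091, so the sign of this comparison turned with the library left out.

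In ChREBPβ cells, where 0.988% of all tested genes rose and 2.88% fell between 11 and 2 mM, Mt-cox3 was the member that fell. Among the 13, edgeR called 0 higher, at an unadjusted p under 0.05 and by DESeq2 as well. The median was -0.23 and 12 of the 13 values were negative, against a median of 0.003 over all tested genes. Its size leaned on single libraries, from -0.46 without ChREBPβ at 11 mM replicate a to -0.13 without replicate c. Without GFP at 2 mM replicate b, which is not in this comparison but widens the estimated spread, Mt-co1, Mt-co2 and Mt-nd5 fell too, with -0.39, -0.37 and -0.41. The interaction had a median of -0.38, and edgeR called 0 of 13 in either direction, with 3 lower at an unadjusted p under 0.05 and 0 by DESeq2. Of all tested genes 1.56% were higher and 4.74% lower for the interaction. Without GFP at 2 mM replicate b 12 members were lower, all but Mt-nd3, as were 706 of 14882 tested genes. Whether the effect of ChREBPβ on the mitochondrial-encoded members differs between 2 and 11 mM glucose was therefore not settled by these libraries. With all libraries kept, edgeR called 10 lower without its filter and 1 with a replicate block, so the outcome depends on the filter and the fit as well as on this library.

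Genes outside the list that act on the chain were examined as groups. Of 43 further assembly factors 39 were tested: with ChREBPβ 10 rose (25.6%) and 6 fell (15.4%) at 2 mM, and 5 rose (12.8%) and 2 fell (5.13%) at 11 mM. Of all tested genes 21.0% rose and 23.2% fell at 2 mM, and 14.3% rose and 19.1% fell at 11 mM, so the share of these factors that rose is near that of all genes. The same all-gene shares apply to the lists that follow. Sdhaf3, which helps to insert the iron-sulfur subunit of complex II, was at 3.60, 3.56 and 3.21 CPM with GFP and 5.77, 5.06 and 5.48 CPM in ChREBPβ cells at 2 mM and rose by 0.65 (SE 0.12, edgeR adjusted p = 0.000147). Sco1, which brings copper to Mt-co2, rose by 0.46 (SE 0.074, edgeR adjusted p = 2.57e-05), and Cox10, which makes the heme of complex IV, by 0.44 (SE 0.0614, edgeR adjusted p = 4.47e-06). Those that fell most were Nubpl, an iron-sulfur factor for complex I, with -1.03 (SE 0.20, edgeR adjusted p = 0.000197), Cox17, the copper carrier that hands copper to Sco1, with -0.38 (SE 0.0703, edgeR adjusted p = 0.000104), and Cox16, a complex IV factor, with -0.37 (SE 0.0817, edgeR adjusted p = 0.000608). Factors of the same copper path thus moved in opposite directions.

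Of 17 genes for transcription and upkeep of mitochondrial DNA, 16 were tested: 3 rose (18.8%) and 1 fell (6.25%) at 2 mM, and 2 rose (12.5%) and 1 fell (6.25%) at 11 mM, shares of rises near or below those of all genes. Tfam, which packs mitochondrial DNA and opens its promoters, was at 111, 111 and 109 CPM with GFP and 139, 143 and 141 CPM in ChREBPβ cells at 2 mM. Its groups did not overlap, and it rose by 0.36 (SE 0.0371, edgeR adjusted p = 8.8e-08); at 11 mM it was at 0.23 (SE 0.0365, edgeR adjusted p = 3.12e-05), under the fold minimum. Tfb2m, the other initiation factor, rose by 0.27 (SE 0.0709, edgeR adjusted p = 0.00264), and Lig3, the mitochondrial DNA ligase, by 0.40 (SE 0.0458, edgeR adjusted p = 3.68e-07). Under library totals Tfam came to 0.26 and Tfb2m to 0.17, and without GFP at 2 mM replicate a Tfb2m came to 0.24, all under the fold minimum. Mterf2, a protein that binds mitochondrial DNA, fell, with -0.59 (SE 0.10, edgeR adjusted p = 3.12e-05).

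Of 18 genes for processing and stability of mitochondrial RNA, 16 were tested, and 4 rose at 2 mM (25%) and 2 at 11 mM (12.5%), again near the shares of all genes. Elac2, which trims the tRNAs that punctuate the precursors, was at 56.1, 56.9 and 57.8 CPM in GFP cells at 2 mM, 75.1, 73.5 and 79.1 CPM in GFP cells at 11 mM, 88.3, 89.6 and 86.4 CPM in ChREBPβ cells at 2 mM and 93.2, 92.9 and 94.6 CPM in ChREBPβ cells at 11 mM. The 4 groups lay in that order without overlap. It rose by 0.63 (SE 0.043, edgeR adjusted p = 1.7e-10) at 2 mM and 0.30 (SE 0.0415, edgeR adjusted p = 5.28e-06) at 11 mM. Trmt10c, part of the enzyme that makes the opposite end of those tRNAs, rose at 2 mM by 0.33 (SE 0.0564, edgeR adjusted p = 4.84e-05), and Tbrg4, an RNA-stabilizing protein, by 0.41 (SE 0.0495, edgeR adjusted p = 7.02e-07). Under library totals Trmt10c at 2 mM came to 0.23 and Elac2 at 11 mM to 0.22, both under the fold minimum.

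Among 14 regulators of respiratory genes, all tested, 8 rose and 1 fell at 2 mM (57.1% and 7.14%), and 4 rose and 1 fell at 11 mM (28.6% and 7.14%), where 21.0% and 14.3% of all tested genes rose. Ppargc1a, the coactivator PGC-1α, was at 5.99, 5.16 and 5.48 CPM with GFP and 16.2, 14.6 and 15.8 CPM in ChREBPβ cells at 2 mM, and at 5.69, 6.08 and 5.75 against 13.0, 12.7 and 12.6 CPM at 11 mM. All ChREBPβ libraries lay far above all GFP libraries, and it rose by 1.48 (SE 0.0843, edgeR adjusted p = 9.61e-12) and 1.13 (SE 0.0796, edgeR adjusted p = 3.76e-10). Ppard, a nuclear receptor for fatty acids, was at 27.6, 26.4 and 29.3 against 57.6, 53.6 and 58.6 CPM at 2 mM and rose by 1.03 (SE 0.0545, edgeR adjusted p = 3.22e-12) and, at 11 mM, by 1.33 (SE 0.0535, edgeR adjusted p = 5.86e-14). Ppargc1b, the related coactivator, rose at 2 mM by 0.81 (SE 0.16, edgeR adjusted p = 0.000179). Esrrg, an orphan receptor known for switching on respiratory genes in maturing β-cells, fell, with -0.55 (SE 0.10, edgeR adjusted p = 9.62e-05) at 2 mM and -0.37 (SE 0.10, edgeR adjusted p = 0.00376) at 11 mM.

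**Figure D5:**
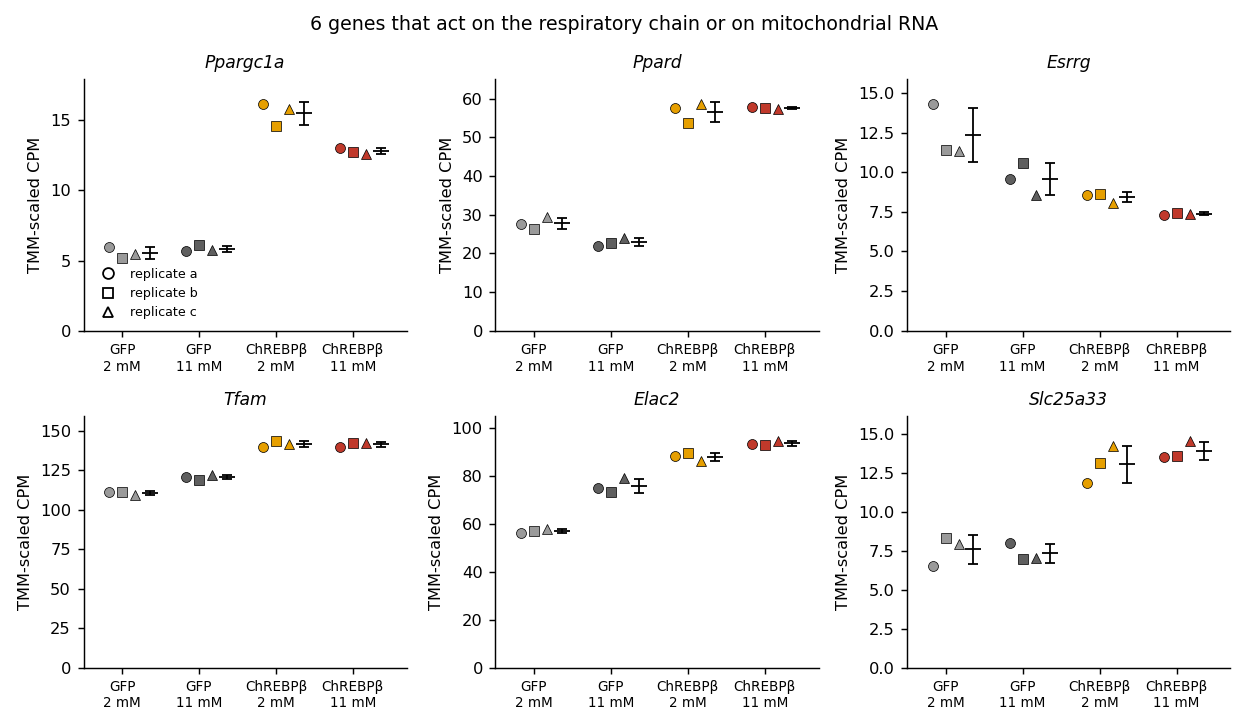
TMM-scaled CPM of Ppargc1a, Ppard, Esrrg, Tfam, Elac2 and Slc25a33 in each library, by group; symbols mark replicates and bars the mean ± SD of 3 libraries. Ppargc1a, Ppard and Slc25a33 are higher in all ChREBPβ libraries than in all GFP libraries, Esrrg is lower with ChREBPβ, and Elac2 is also higher with glucose in GFP cells.

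Among 18 genes for cytochrome c, coenzyme Q and carriers, 8 rose (44.4%) and 1 fell (5.56%) at 2 mM, and 3 rose (16.7%) and 1 fell (5.56%) at 11 mM. Slc25a33, the mitochondrial carrier of pyrimidine nucleotides, was at 6.54, 8.31 and 7.92 CPM with GFP and 11.8, 13.1 and 14.2 CPM in ChREBPβ cells at 2 mM, and rose by 0.78 (SE 0.10, edgeR adjusted p = 1.04e-06) and, at 11 mM, by 0.92 (SE 0.0928, edgeR adjusted p = 7.82e-08). Slc25a5, an ADP/ATP carrier that exchanges the product of ATP synthase, rose at 2 mM by 0.45 (SE 0.037, edgeR adjusted p = 2.91e-09). Coq8a and Coq8b, related proteins of coenzyme Q synthesis, went in opposite directions at 2 mM, with 0.61 (SE 0.0863, edgeR adjusted p = 5.14e-06) and -0.45 (SE 0.0718, edgeR adjusted p = 2.44e-05). Of 15 other mitochondrial membrane and matrix proteins tested, 8 rose at 2 mM (53.3%) and 4 at 11 mM (26.7%), led at 2 mM by the chaperone Hspa9, 0.62 (SE 0.0399, edgeR adjusted p = 6.63e-11), the prohibitin Phb, 0.59 (SE 0.0527, edgeR adjusted p = 1.04e-08), and the chaperonin Hspd1, 0.58 (SE 0.0366, edgeR adjusted p = 4.45e-11). Rises at 2 mM were thus present in mitochondrial genes outside the respiratory chain too.

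Promoters are shown to describe the sequences at the starts of the nuclear members, those that rose and those that did not. RefSeq promoters of 300 bases on build GRCr8 were found for 73 of the 84 nuclear members. The letters searched, on both strands, were GCGCANGCG for the factor NRF1, CCGGAAG for ETS factors such as GABP, AAGATGGCG for YY1 and CACGTG, the E-box, which is the building block of ChREBP sites. NRF1 letters were in 19 of the 73 promoters, ETS letters in 20 (27.4%) and YY1 letters in 9 (12.3%). Of all 33469 promoters in the table, 5.8%, 8.75% and 1.73% held them. The E-box was in 7 (9.59%, against 6.42%). The pair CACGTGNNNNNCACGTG was in 0 of the 73 and in 1 of the 33469. With a pair this rare, 0 of 73 does not set the members apart, and pairs with inexact letters were not searched.

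The same promoters were split by outcome. Of the 22 with a promoter that rose at 2 or 11 mM, 6 held NRF1 letters (27.3%), 6 ETS letters (27.3%), 4 YY1 letters (18.2%) and 2 the E-box (9.09%). Of the other 51, 13 held NRF1 letters (25.5%), 14 ETS letters (27.5%), 5 YY1 letters (9.8%) and 5 the E-box (9.8%). The shares with NRF1, ETS and E-box letters were thus close between members that rose and the others. The promoters of Atp5b, Atp5d and Ndufaf2 held none of these letters. A match is a description of the sequence, no match says only that the letters are not in this window, and binding was not measured here.

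The promoters of 3 subunit genes from different complexes and of 1 assembly factor gene follow, read 5′ to 3′ on the strand of the gene, with matches in capitals. Sdhd (chr8:59850592-59850891, minus strand) has 2 ETS matches, Uqcrc1 (chr8:118467973-118468272, plus strand) 2 NRF1 matches and 1 YY1 match, Atp5g3 (chr3:79220615-79220914, minus strand) 1 E-box and 1 NRF1 match, and Ndufaf4 (chr5:43401545-43401844, plus strand) 1 E-box and a run of NRF1 letters that matches on both strands and so counts as 2. Sdhd, Uqcrc1 and Atp5g3 rose at both glucose levels and Ndufaf4 at 2 mM.
Sdhd: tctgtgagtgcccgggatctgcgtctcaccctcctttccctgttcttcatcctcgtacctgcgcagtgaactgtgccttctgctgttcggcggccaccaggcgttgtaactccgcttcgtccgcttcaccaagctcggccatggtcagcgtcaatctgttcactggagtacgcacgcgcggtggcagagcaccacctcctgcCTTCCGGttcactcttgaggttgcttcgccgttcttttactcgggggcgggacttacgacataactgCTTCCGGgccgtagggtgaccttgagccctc
Uqcrc1: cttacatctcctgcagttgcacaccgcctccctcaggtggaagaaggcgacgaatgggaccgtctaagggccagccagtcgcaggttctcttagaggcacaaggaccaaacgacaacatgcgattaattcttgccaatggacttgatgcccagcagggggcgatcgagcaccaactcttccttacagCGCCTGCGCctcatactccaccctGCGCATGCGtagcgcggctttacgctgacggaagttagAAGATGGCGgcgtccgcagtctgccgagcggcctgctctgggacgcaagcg
Atp5g3: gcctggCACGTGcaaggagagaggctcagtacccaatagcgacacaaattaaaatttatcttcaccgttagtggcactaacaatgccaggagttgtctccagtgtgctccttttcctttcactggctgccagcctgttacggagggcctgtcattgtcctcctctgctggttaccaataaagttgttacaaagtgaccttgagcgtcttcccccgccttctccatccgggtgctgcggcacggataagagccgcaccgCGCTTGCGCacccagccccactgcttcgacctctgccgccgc
Ndufaf4: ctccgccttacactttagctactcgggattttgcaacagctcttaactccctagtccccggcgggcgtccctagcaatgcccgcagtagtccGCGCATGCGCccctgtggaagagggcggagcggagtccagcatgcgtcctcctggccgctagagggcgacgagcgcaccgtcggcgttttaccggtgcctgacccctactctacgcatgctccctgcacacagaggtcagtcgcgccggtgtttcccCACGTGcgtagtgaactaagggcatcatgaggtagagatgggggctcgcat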

How the data were processed

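The authors deposited raw counts per gene in a table of 28728 entries, 1 of them unnamed, which held under 0.00602% of any library; 4 further columns are group means, and 0 other per-sample columns exist. The submitters' notes name build Rnor_6.0 and edgeR; aligner and counter are not given in the sources used here. Counts were analysed in R 4.3.3 with edgeR 4.0.16 (filterByExpr, TMM, quasi-likelihood, all 12 libraries in a single fit by group), DESeq2 1.42.0 and Python 3.11.15. The SE is the log2 fold change over the square root of F. Members and lists were chosen with earlier results of these data known. Genes named by rule were all mitochondrial-encoded members, complex II, up to 5 called nuclear members per direction and comparison, isoform pairs, and up to 3 per direction from each other list at 2 mM; other members named were chosen after their values were seen. Lists of ribosomal RNA of mitochondria (2 genes) and nuclear-retained RNA (4) matched 0 entries. The scripts include a run on simulated counts, which checks the code and not the findings. Alternatives were DESeq2, RLE factors, library totals, nuclear-only scaling, other filters, a replicate block, no fold minimum, 2-group fits and each library left out. Spread between replicates exceeded counting noise (chi-square over its degrees of freedom 3.13 to 17.5). The limits are those of RNA from a tumour line with a virus-driven factor: 3 libraries per group, a single time, levels relative to other genes, and no measure here of protein, respiration, mitochondrial DNA copies or RNA half-life. Reads shared by overlapping mitochondrial genes or by nuclear copies were not resolved. Why GFP at 2 mM replicate b stands apart was not tested.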

Additional observations from a re-analysis of the deposited data

Results flagged for a closer look

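Of the genes named in the text by rule, 8 were called for the edgeR interaction, the ChREBPβ effect at 11 mM less that at 2 mM (1.56% of all tested genes were higher and 4.74% lower). Among the members, Ndufaf2 had a difference of -0.75 (SE 0.18, edgeR adjusted p = 0.014) and Ndufaf4 of -0.38 (SE 0.0919, edgeR adjusted p = 0.0144). Among other mitochondrial genes, Elac2 had -0.33 (SE 0.0597, edgeR adjusted p = 0.00153), Trmt10c -0.26 (SE 0.078, edgeR adjusted p = 0.0419), Hspa9 -0.33 (SE 0.056, edgeR adjusted p = 0.000742) and Hspd1 -0.42 (SE 0.0516, edgeR adjusted p = 2.16e-05). A larger effect at 11 mM was found for Ppard, 0.31 (SE 0.0762, edgeR adjusted p = 0.0161), and a smaller fall for Pcsk1, 0.32 (SE 0.10, edgeR adjusted p = 0.0463). Trmt10c was not called with DESeq2 (-0.25, under the fold minimum), RLE factors, library totals or the filter of 10 counts in every library, nor in 8 of the 12 fits with a library left out (adjusted p from 0.0613 to 0.106). Pcsk1 was not called in 9 of those 12 (adjusted p from 0.0628 to 0.117), Ppard without ChREBPβ at 2 mM replicate b (adjusted p = 0.0596) and Ndufaf4 without ChREBPβ at 2 mM replicate a (adjusted p = 0.053). The cause was not tested.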

How the results depend on the processing

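No call of a member or named gene turned its direction under any alternative run on it, and the cause of the shifts was not tested. Nuclear members higher and lower with ChREBPβ at 2 mM were 9 higher under library totals and 42 without a fold minimum, and 17 to 23 higher and 3 to 6 lower with a library left out; the nuclear median was 0.045 under library totals. At 11 mM they were 3 higher and 2 lower under library totals, 44 and 4 without a fold minimum, and 8 to 28 and 0 to 1 with a library left out. With glucose in GFP cells they were 15 and 9 without a fold minimum, and 2 to 4 and 0 to 7 with a library left out. The mitochondrial median with a library left out was 0.40 to 0.98 with ChREBPβ at 2 mM and -0.091 to 0.42 with glucose in GFP cells; it was 0.074 to 0.30 with ChREBPβ at 11 mM and -0.46 to -0.13 with glucose in ChREBPβ cells. Mitochondrial-encoded members called with ChREBPβ at 11 mM were 0 by DESeq2, 1 under library totals, 6 without a filter, 4 in the fit of 2 groups and 1 to 5 with a library left out. With glucose in GFP cells they were 3 without a filter, 1 with a replicate block, and 0 to 8 with a library left out. In ChREBPβ cells they were 6 without a filter, 6 in the fit of 2 groups, and 1 to 4 with a library left out. Interaction calls were 14 without a filter and 1 to 14 with a library left out. Of 360 named values, 353 kept their side of the threshold with DESeq2, 333 under library totals, 331 without a filter and 323 without GFP at 2 mM replicate b. Of 5537 values of the 56 members outside the naming rule, 31 lost and 60 gained a call. Replicate letters were not treated as pairs: of 18 correlations between libraries of the same letter, 0 exceeded 0.1. The exclusion of GFP at 2 mM replicate b for all calls was added after the data were seen. Correction for transcript length was not run, as lengths in the reference are genomic spans.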

Other observations

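Of the β-cell markers, 4 were named by the rule. Nkx6-1, a β-cell transcription factor gene, was at 93.1, 90.6 and 102 CPM with GFP and 31.8, 30.3 and 32.0 CPM with ChREBPβ at 2 mM, -1.61 (SE 0.055, edgeR adjusted p = 2.96e-15). Pcsk1, which cleaves proinsulin, was at 34.1, 32.6 and 29.6 against 10.0, 10.9 and 10.4 CPM, -1.61 (SE 0.0693, edgeR adjusted p = 1.09e-13), and Iapp, the amylin gene, at 2645, 2742 and 2608 against 917, 901 and 907 CPM, -1.55 (SE 0.0378, edgeR adjusted p = 1.42e-17). Slc2a2 was at 422, 441 and 449 against 611, 639 and 604 CPM, 0.50 (SE 0.0395, edgeR adjusted p = 1.67e-09). In each case the groups did not overlap.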
